A study of Macaca mulatta with 161 samples.

Results

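The amino acid transporter genes described here are the 55 rows, of 16049 gene symbols measured, whose symbol begins with SLC1A, SLC3A, SLC6A, SLC7A, SLC36A, SLC38A or SLC43A. The rule reads the symbol and uses no measured level. They were followed in 161 single inner cells of cultured rhesus monkey (Macaca mulatta) blastocysts, by stage and against the levels of NANOG and SOX17. The prefix also takes in SLC7A6OS, which is named for its place beside SLC7A6 and is not a transporter, and SLC6 carriers of taurine, creatine and monoamines.

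The cells came from embryos fertilised and grown in vitro, and each cell gave 1 library of polyadenylated RNA. The groups were 44 early blastocyst cells (small cavity, about embryonic day 5), 39 middle blastocyst cells (larger cavity, about day 5.5), 52 late blastocyst cells (fully expanded cavity, about day 6) and 26 hatching blastocyst cells (about day 7, out of the zona pellucida per the labels' protocols). No treatment is given for any of them, all were grown in medium HECM-9 with serum, and inner cells were told from outer cells by the absence of the membrane dye PKH26, which had been applied to the whole embryo. No embryo, mother or sex is given for a cell, so each stage counts as 1 sample, the cells are not replicates of a stage, and no test between groups is made.

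Amino acid transporters of the SLC families carry amino acids across the plasma membrane and the membranes of lysosomes and vesicles. Exchangers of the SLC7 family work as light chains joined to a heavy chain, SLC3A2 (CD98) or SLC3A1 (rBAT), which brings them to the cell surface. Sodium-coupled carriers of the SLC38, SLC1 and SLC6 families concentrate amino acids such as glutamine, glutamate and glycine inside the cell, and the exchangers then trade them for leucine, arginine or cystine. In embryos before implantation, amino acid uptake feeds protein synthesis and controls cell volume, and signals through the kinase mTORC1.

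Levels are in FPKM, sequenced fragments divided by transcript length and by the size of the library, so that levels of different genes can be set side by side. A difference is that of the mean log2(FPKM + 1) of 2 groups of cells, a scale that understates differences of genes with low levels, and a member is called higher or lower where the difference is at least 1 log2 unit. Differences were read only for the 30 members with a mean of at least 1 FPKM over all cells, as for the 9781 genes of the table that pass the same limit. The SD given is the spread between cells, and a cell has a gene detected at 1 FPKM or more. The reads recovered from the FPKM steps had medians of 11.3, 12.8, 11.2 and 11.8 M (mega) per cell in early, middle, late and hatching cells, with a range of 3.15 to 20.1 M over all cells. Of 8 epiblast markers, 7, 6, 7 and 8 had a median of at least 1 FPKM in early, middle, late and hatching cells. The summed level of 8 trophectoderm marker rows had medians of 1078, 1686, 1718 and 1461 FPKM in the 4 stages. It ranged from 112 to 20840 FPKM over all cells. Of these 8 rows, 3 had a median of at least 1 FPKM in each stage, while CGA had a median of 0 FPKM in each.

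Summed over the members, median levels were higher at later stages, less so without the cells that had more SOX17 than NANOG. The median number of members detected per cell was 16 in early, 17 in middle, 16 in late and 18 in hatching cells. Their summed level had a median of 388 FPKM in early, 486 in middle, 496 in late and 574 in hatching cells, and the ranges overlapped throughout (146 to 622 FPKM in early and 212 to 1609 FPKM in hatching cells). Cells with more SOX17 than NANOG, absent from the early and middle stages, had medians of 633 FPKM in late and 1480 FPKM in hatching cells. The other late and hatching cells had medians of 440 and 519 FPKM, the late one below that of middle cells. The heavy chain SLC3A2 had the highest mean over all cells, 159 FPKM. After it came the glutamine and neutral amino acid carrier SLC38A2 at 68.9 FPKM, the glutamine exchanger SLC1A5 at 44.9, the little-studied SLC38A10 at 35.9 and the large neutral amino acid exchanger SLC7A8 at 31.3. SLC38A9, the lysosomal arginine sensor of mTORC1, SLC7A4 of the cationic transporter branch, the arginine and neutral amino acid exchanger SLC7A7, SLC7A6OS and the taurine carrier SLC6A6 completed the 10 highest, at 23.2, 22.97, 20.1, 15.2 and 12.3 FPKM.

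Between the ends of the series, 14 of the 30 members were higher in hatching than in early cells, where 11.3% of all genes were, and 5 were lower, where 16.2% of all genes were. The median member difference was 0.50 log2 units, and the median of all genes was -0.12. With size factors from the median of ratios those medians were 0.60 and -0.00. Taken from medians over cells they were 0.13 and 0, and without a filter, over 48 members, 0.052 and -0.0042. Taken from log2 of mean FPKM they were 1.00 and 0.088. The count of 14 was 1 with a pseudocount of 10 and 7 with a mean of at least 5 FPKM, which left 19 members. From medians over cells it was also smaller. The share of all genes was not counted under these settings. The members called higher came from the SLC38, SLC7, SLC6, SLC36, SLC1 and SLC43 families, and the members called lower were SLC7A4, SLC6A8, SLC7A6OS, SLC38A8 and SLC38A6. SLC1 entered through SLC1A5 alone and SLC43 through SLC43A1 alone, past 1 log2 unit in 6 and 7 of 10 alternatives. SLC6A3, with a mean of 1.04 FPKM, passed it in 5 of 10. The filter mean includes the hatching cells, so members or other genes with little signal elsewhere could pass the filter through those cells.

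**Figure D1:**
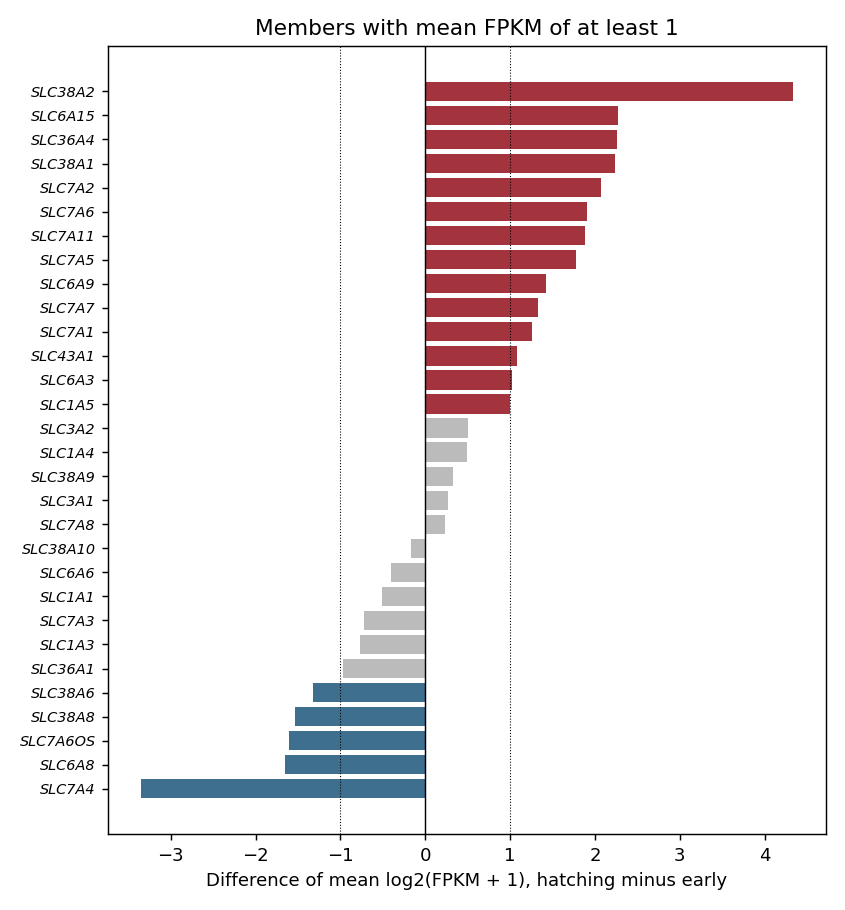
Difference of mean log2(FPKM + 1), hatching minus early, for the 30 members with a mean of at least 1 FPKM. Bars to the right are higher in hatching cells, dotted lines mark 1 log2 unit, and SLC38A2 (4.33) and SLC7A4 (-3.35) stand at the ends.

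The sodium-coupled SLC38 carriers showed the widest range of stage differences. SLC38A2, which takes up alanine, glutamine and other small neutral amino acids, had lowest, median and highest levels of 0, 4.62 and 217 FPKM in early cells, 0.0747, 4.39 and 148 FPKM in middle cells, 0.0306, 55.6 and 480.4 FPKM in late cells, and 64.7, 145 and 426 FPKM in hatching cells. Hatching cells were all high and close to each other, while early cells ran over the whole range and overlapped them. The mean log2 level was 7.23 ± 0.67 (SD, 26 cells) in hatching and 2.89 ± 2.83 (SD, 44 cells) in early cells, a difference of 4.33. It was detected in 26 of 26 hatching cells (exact Clopper-Pearson 95% interval 86.8 to 100%) and in 25 of 44 early cells (56.8%, interval 41.03 to 71.7%). These intervals cover counting error of cells only, and the amplified reads carry no molecular identifiers.

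The early cells fell apart for this gene along the numbers in their titles. SLC38A2 had a median of 0.197 FPKM in the 25 early cells titled 1 to 28 and of 75.7 FPKM in the 19 titled 29 to 48, and was detected in 9 and 16 of them. The median reads of those cells were 9.04 and 15.1 M, and across the early cells SLC38A2 had a Spearman rho of 0.64 with reads. The part of depth or of a shared embryo in this was not tested, since the labels do not say what the numbers stand for. The difference of hatching from early cells was 6.08 against the lower-numbered cells alone and 2.04 against the higher-numbered ones alone.

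SLC38A1, a carrier of glutamine and other neutral amino acids close in kind to SLC38A2, had medians of 0, 0, 1.62 and 4.36 FPKM and highest levels of 2.68, 5.64, 36.5 and 28.6 FPKM in early, middle, late and hatching cells. It was detected in 4 of 44, 7 of 39, 27 of 52 and 19 of 26 cells, and in none of these cells without SLC38A2. Cells without SLC38A2 numbered 19 in early, 13 in middle, 4 in late and 0 in hatching cells. At hatching, SLC38A1 without SLC38A2 could therefore not occur. The difference of hatching from early cells was 2.23. SLC38A8 and SLC38A6 were lowest in hatching cells. SLC38A8, a glutamine carrier known from the retina, was detected in 18 of 44 early, 6 of 39 middle, 15 of 52 late and 0 of 26 hatching cells (which allows a share of up to 11.5%), a difference of -1.54 between hatching and early cells. SLC38A6 had medians of 4.96, 9.01, 10.5 and 0.0460 FPKM in early, middle, late and hatching cells, and the hatching mean lay -1.32 from the early and -2.07 from the late mean. A few hatching cells kept it, up to 40 FPKM, so that the stages overlapped.

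SLC38A9 and SLC38A10 differed little between stages. SLC38A9 had medians of 16.6, 19.8, 21.8 and 25.4 FPKM from early to hatching cells and was detected in 43 of 44, 37 of 39, 47 of 52 and 23 of 26. SLC38A10 had medians of 28.2, 40.5, 35.2 and 22.3 FPKM and was missing at 1 FPKM from 1 late and 1 hatching cell only. Of the other SLC38 genes, SLC38A5 was detected in 2 hatching cells, SLC38A3 in 1 early and 1 hatching cell, SLC38A11 in 1 early cell, and SLC38A4 was at 0 in every cell.

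**Figure D2:**
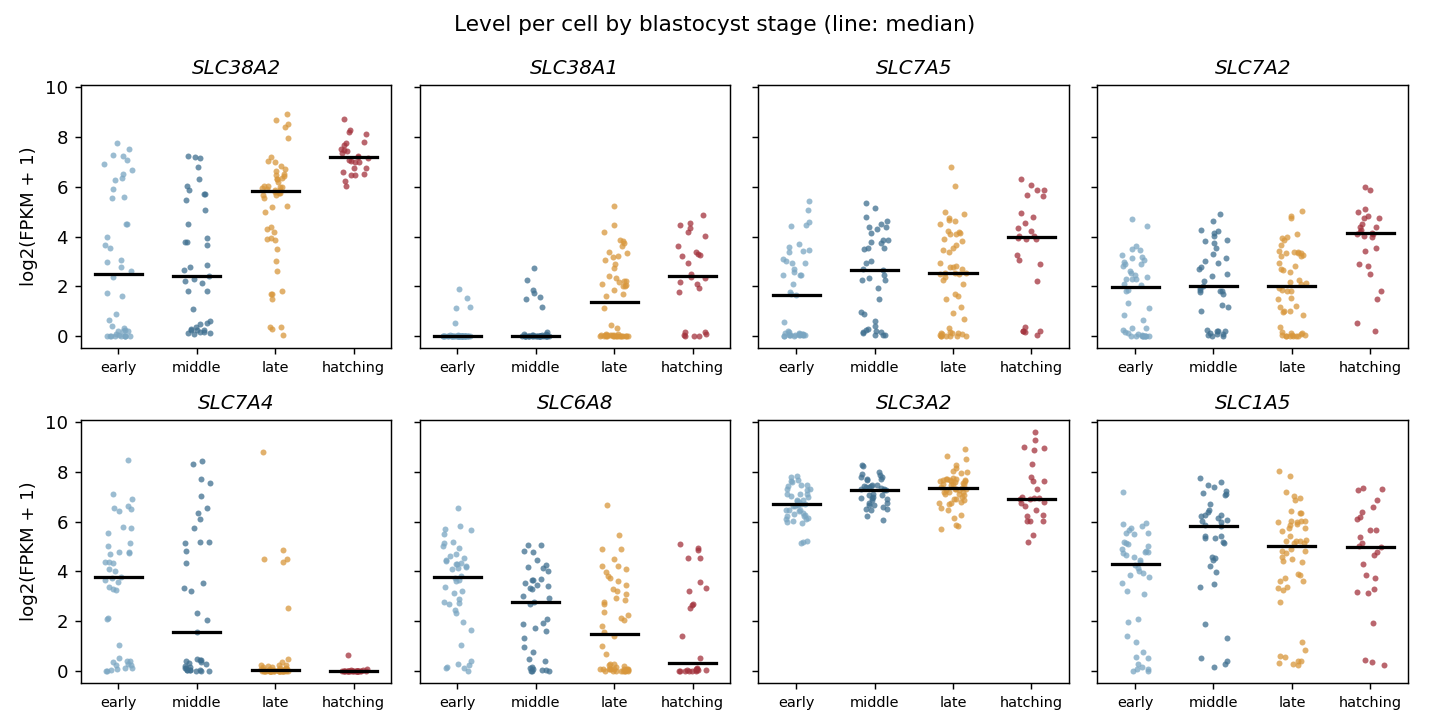
Level of 8 members in each cell, as log2(FPKM + 1), by stage, with 1 point per cell and a line at the median. SLC38A2 is high in all 26 hatching cells, SLC7A4 reaches 1 FPKM in none of them, and SLC3A2 is present in every cell of every stage.

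Among the exchangers that pair with SLC3A2, hatching cells were higher than early cells in 4 of the 5 that were expressed, where 11.3% of all genes were, and the difference of one of the 4, SLC7A7, rested on the hatching cells titled 1 to 18. SLC7A5, the main carrier of leucine and other large neutral amino acids, had lowest, median and highest levels of 0, 2.18 and 42.3 FPKM in early cells, 0.0213, 5.27 and 39.8 FPKM in middle cells, 0, 4.74 and 111 FPKM in late cells, and 0.0373, 14.7 and 78.9 FPKM in hatching cells. The ranges overlapped, and the hatching mean was 1.77 log2 units above the early and 1.07 above the late mean. SLC7A11, the cystine and glutamate exchanger that supplies cysteine for glutathione, was detected in 5 of 44 early, 7 of 39 middle, 19 of 52 late and 15 of 26 hatching cells, and its hatching mean was 1.88 above the early one.

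SLC7A6, an exchanger of arginine and neutral amino acids, was higher by 1.91 in hatching than in early cells, with medians of 5.22 FPKM in hatching and 0.0190 FPKM in early cells. SLC7A6OS, its neighbour, was lower, at -1.61, with medians of 6.34 FPKM in hatching and 16.1 FPKM in early cells. The 2 genes overlap at their ends in the RefSeq annotation of T2T-MMU8v2.0, which may not be the build used, and the use of strand in counting is not stated, so reads of one cannot be told from reads of the other there.

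SLC7A7, which exports arginine in trade for neutral amino acids, had medians of 0.130, 0.379, 16.4 and 0.612 FPKM in early, middle, late and hatching cells. Its late mean was 1.61 above the middle mean of 1.81. That late mean was 4.87 in the 19 late cells with more SOX17 than NANOG and 2.58 in the other 33. Its hatching mean was 1.33 above the early one, and without the hatching cells titled 1 to 18, which include every hatching cell with more SOX17 than NANOG, that difference was -0.03. SLC7A8 had medians of 5.87, 5.61, 30.7 and 0.298 FPKM in the 4 stages. Its late mean was 1.90 above the middle mean of 2.17. That late mean was 6.64 in the 19 late cells with more SOX17 than NANOG and 2.59 in the other 33. The hatching mean of SLC7A8 lay -1.66 from the late mean. With only the hatching cells titled 1 to 18 that last difference was 0.38, and with only those titled 22 to 47 it was -3.40. SLC7A10 was at 0 in every cell.

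The heavy chain itself was detected in all 161 cells. SLC3A2 had lowest, median and highest levels of 34.05, 104 and 226 FPKM in early cells, 66.3, 155 and 308 FPKM in middle cells, 51.1, 160 and 482 FPKM in late cells, and 34.9, 120 and 782 FPKM in hatching cells. Its stage means differed by less than 1 log2 unit, and hatching cells spread the most, with an SD of 1.20 log2 units against 0.67 in early cells. The light chains SLC7A5, SLC7A6, SLC7A7, SLC7A8, SLC7A10 and SLC7A11 summed to medians of 18.4, 23.6, 66.2 and 48.3 FPKM in early, middle, late and hatching cells. SLC3A2 exceeded that sum in 44 of 44 early, 39 of 39 middle, 39 of 52 late and 21 of 26 hatching cells. The light chain with the highest level in a cell was most often SLC7A8 in early (17 of 44), middle (14 of 39) and late cells (27 of 52), and SLC7A5 in hatching cells (12 of 26).

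**Figure D3:**
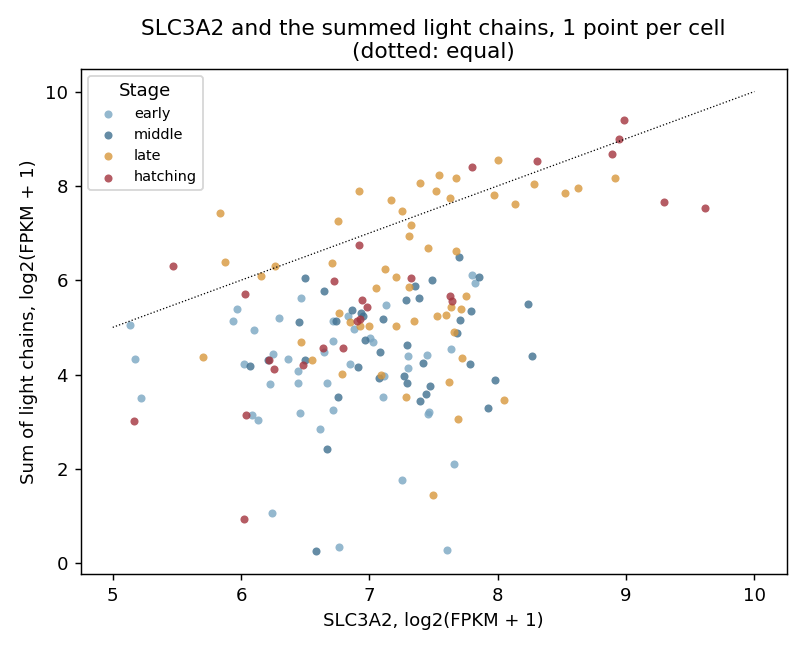
Summed level of the light chains (vertical) against SLC3A2 (horizontal), both as log2(FPKM + 1), 1 point per cell and coloured by stage, with equality dotted and SLC7A10 left out because it was at 0. All early and middle cells lie under the line, while 13 late and 5 hatching cells lie above it.

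SLC3A1, the heavy chain of the cystine transporter, was detected in 18 of 44 early, 26 of 39 middle, 26 of 52 late and 13 of 26 hatching cells, up to 24.2 FPKM. Its known light chains SLC7A9 and SLC7A13 reached 1 FPKM in no cell, and SLC7A13 was at 0 throughout.

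The cationic amino acid transporter branch held the gene that was lowest in hatching relative to early cells. SLC7A4, whose transport function is not settled, had lowest, median and highest levels of 0, 12.6 and 357 FPKM in early cells, 0, 1.97 and 347 FPKM in middle cells, 0, 0.0316 and 449 FPKM in late cells, and 0, 0 and 0.546 FPKM in hatching cells. It was detected in 31 of 44 early cells (70.5%, interval 54.8 to 83.2%), 20 of 39 middle, 6 of 52 late and 0 of 26 hatching cells. The difference was -3.35 between hatching and early cells and -2.14 between late and middle cells. The difference of late from middle cells was -2.81 against the middle cells titled 3 to 29 alone and -0.83 against those titled 32 to 55 alone.

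SLC7A1 and SLC7A2, which import arginine, lysine and ornithine, were higher in hatching than in early cells. SLC7A2 had medians of 2.89, 3.09, 3.10 and 16.6 FPKM in early, middle, late and hatching cells, its hatching mean being 2.08 above the early and 1.75 above the late mean. SLC7A1 was detected in 3 of 44, 22 of 39, 23 of 52 and 12 of 26 cells, with differences of 1.26 between hatching and early and 1.64 between middle and early cells. In the middle stage, SLC7A1 was detected in 19 of the 25 cells titled 3 to 29 and in 2 of the 12 titled 32 to 55. SLC7A3, another arginine importer, had detections in 22 of 44, 15 of 39, 13 of 52 and 7 of 26 cells and passed no limit between stages. SLC7A14 reached at most 0.00848 FPKM.

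Among the SLC1 genes, SLC1A5, which exchanges glutamine, serine and other neutral amino acids, had lowest, median and highest levels of 0, 18.9 and 147 FPKM in early cells, 0.128, 55.7 and 211 FPKM in middle cells, 0.187, 31.5 and 264 FPKM in late cells, and 0.166, 30.6 and 163 FPKM in hatching cells. Each stage had a few cells near 0, and all ranges overlapped. Its middle mean was 1.48 and its hatching mean 1.00 above the early mean, and against the early cells titled 29 to 48 alone those differences were 1.00 and 0.53. Its relative SLC1A4, a carrier of alanine, serine and cysteine, was detected in 4 of 44, 9 of 39, 12 of 52 and 7 of 26 cells.

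SLC1A1, a high-affinity glutamate and aspartate carrier, peaked in middle cells, with medians of 0.171, 8.98, 1.10 and 0.0349 FPKM from early to hatching cells. Its middle mean was 1.40 above the early one, and its late mean lay -1.14 from the middle one. These differences passed 1 log2 unit in 7 of 9 and 6 of 9 alternatives. The early mean was 0.85 in titles 1 to 28 and 1.99 in titles 29 to 48, where the middle mean was 2.74. SLC1A3, the glutamate carrier best known from glia, was detected in 27 of 44, 18 of 39, 14 of 52 and 5 of 26 cells, and its stage differences stayed under 1 log2 unit.

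The SLC6 carriers of amino acids were low in early cells. SLC6A9, the glycine transporter that oocytes and cleavage-stage embryos of the mouse use to control cell volume, was detected in 9 of 44 early, 23 of 39 middle, 10 of 52 late and 15 of 26 hatching cells. Its differences were 1.47 between middle and early, -1.43 between late and middle, and 1.39 between hatching and late cells. SLC6A15, a carrier of branched-chain amino acids and proline, was detected in 1 of 44, 3 of 39, 9 of 52 and 17 of 26 cells. Its hatching mean was 2.27 above the early and 1.8 above the late mean, and the difference from early cells was 1.09 with hatching titles 1 to 18 alone and 3.29 with titles 22 to 47 alone.

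The other SLC6 members with enough signal carry no proteinogenic amino acid. SLC6A8, the creatine transporter, had medians of 12.7, 5.79, 1.82 and 0.266 FPKM from early to hatching cells, a difference of -1.66 between hatching and early cells. Among late cells it was detected in 16 of 18 titled 3 to 22 and in 10 of 29 titled 25 to 61. SLC6A6, the taurine transporter, had medians of 7.46, 16.1, 9.25 and 7.13 FPKM. SLC6A3, the dopamine transporter, was detected in 3 of 44, 1 of 39, 8 of 52 and 9 of 26 cells, a difference of 1.02 between hatching and early cells.

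Of the proton-coupled carriers, SLC36A4 was higher at hatching and SLC36A1 was lower in late than in middle cells. SLC36A4, a high-affinity carrier of proline and tryptophan, had medians of 0, 0.0223, 1.10 and 13.9 FPKM in early, middle, late and hatching cells, and its hatching mean was 2.26 above the early and 1.51 above the late mean. That hatching mean was 3.99 in titles 1 to 18 and 2.34 in titles 22 to 47, where the late mean was 1.59. SLC36A1, the lysosomal carrier of glycine, alanine and proline, had medians of 11.3, 17.6, 3.75 and 4.78 FPKM, its late mean lying -1.72 from the middle mean. SLC43A1, a carrier of large neutral amino acids that needs no heavy chain, was detected in 1 of 44, 6 of 39, 9 of 52 and 8 of 26 cells, a difference of 1.08 between hatching and early cells.

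Step by step, between middle and early cells 4 of 30 members were higher (3.06% of all genes) and 1 was lower (3.61%), the 4 being SLC7A1, SLC1A5, SLC6A9 and SLC1A1 and the other SLC38A8 at -1.03. Between late and middle cells 4 were higher (3.95% of all genes), namely SLC38A2 at 2.21, SLC7A8, SLC7A7 and SLC38A1 at 1.16, and 4 were lower (5.82%), namely SLC7A4, SLC36A1, SLC6A9 and SLC1A1. In the 33 late cells with less SOX17 than NANOG, mean log2 levels were 2.59 for SLC7A8 and 2.58 for SLC7A7. Middle cells had means of 2.17 and 1.81. Between hatching and late cells 6 were higher (7.26% of all genes), namely SLC38A2 at 2.09, SLC6A15, SLC7A2, SLC36A4, SLC6A9 and SLC7A5, and 3 were lower (9.87%), namely SLC38A6, SLC7A8 and SLC7A6OS at -1.20.

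The members were then set against NANOG, the transcription factor of the epiblast, and SOX17, a transcription factor of the primitive endoderm. Cells with a higher log2 level of SOX17 than of NANOG, called SOX17-higher, numbered 0 of 44 early, 0 of 39 middle, 19 of 52 late and 7 of 26 hatching cells, and the rest are called NANOG-higher. NANOG had medians of 2.01 FPKM in late SOX17-higher and 525 FPKM in late NANOG-higher cells, and of 3.53 FPKM in hatching SOX17-higher and 614 FPKM in hatching NANOG-higher cells. This split is a range of a score and not a cell type, and 3 late and 0 hatching cells lay within 1 log2 unit of it. The summed level of 7 primitive endoderm marker rows, SOX17 among them, had medians of 386 FPKM in late SOX17-higher and 19.6 FPKM in late NANOG-higher cells. In hatching cells they were 1620 FPKM in SOX17-higher and 4.89 FPKM in NANOG-higher cells. Since SOX17 also defines the split, part of this separation was fixed in advance. The summed level of the 8 trophectoderm marker rows had medians of 1278 FPKM in late SOX17-higher and 2063 FPKM in late NANOG-higher cells. At hatching the medians were 2143 FPKM in SOX17-higher and 1316 FPKM in NANOG-higher cells. Of the 8 rows, 2 had a median of at least 1 FPKM in late SOX17-higher and 3 in late NANOG-higher cells. At hatching these counts were 3 and 2, and CGA had a median of 0 in all 4 groups. The part of cells with trophectoderm markers in the differences was not tested.

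Hatching SOX17-higher cells also differed in depth. Their medians were 5680 genes detected and 9.74 M reads, against 6940 genes and 13.2 M reads in hatching NANOG-higher cells, while the late groups had 6850 genes in SOX17-higher and 6998 in NANOG-higher cells. All 7 hatching SOX17-higher cells bear titles from 1 to 18, a range they share with 5 NANOG-higher cells. The part of depth and of title range in the hatching differences was not tested beyond the values given for titles 1 to 18.

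In the late stage, 7 of 30 members were higher in SOX17-higher cells (7.69% of all genes) and 4 were lower (7.89%). No member had every SOX17-higher cell above every NANOG-higher cell (0.0% of all genes) or below (0.0102%). The median member difference was -0.30 and that of all genes -0.01. At hatching, 7 of 30 members were higher (14.2% of all genes) and 10 were lower (33.7%), with a median member difference of -0.13 where that of all genes was -0.45. With size factors from the median of ratios those medians were 0.03 and -0.15. The share of members called lower at hatching was close to that of all genes.

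SLC7A8, the exchanger of large and small neutral amino acids, differed most. It had lowest, median and highest levels of 0.803, 145 and 222 FPKM in late SOX17-higher cells, against 0.0294, 0.803 and 283 FPKM in late NANOG-higher cells. At hatching it had 42.9, 137 and 311 FPKM in SOX17-higher cells, against 0, 0.149 and 14.5 FPKM in NANOG-higher cells. The late groups overlapped, through 1 SOX17-higher cell near 0 and a number of NANOG-higher cells above 10 FPKM, and the hatching groups did not overlap. The differences were 4.06 in late and 6.05 in hatching cells, and 5.73 among the hatching cells titled 1 to 18. It was detected in 18 of 19 late SOX17-higher and 16 of 33 late NANOG-higher cells.

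SLC7A7 followed the same direction. Its medians were 35.8 FPKM in late SOX17-higher and 9.88 FPKM in late NANOG-higher cells, a difference of 2.29. At hatching it had lowest, median and highest levels of 0.0813, 125 and 498 FPKM in SOX17-higher cells, against 0, 0.229 and 30.2 FPKM in NANOG-higher cells, a difference of 5.14. In both stages single SOX17-higher cells were near 0, so the groups overlapped.

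The heavy chain SLC3A2 had lowest, median and highest levels of 222, 491 and 782 FPKM in hatching SOX17-higher cells, against 34.9, 105 and 199 FPKM in hatching NANOG-higher cells. These groups did not overlap, and the difference was 2.25, or 2.41 among the hatching cells titled 1 to 18. In late cells the medians were 196 FPKM in SOX17-higher and 147 FPKM in NANOG-higher cells and the ranges overlapped. SLC3A2 and SLC7A8 were the 2 of 30 members with every hatching SOX17-higher cell above every NANOG-higher cell, where 1.41% of all genes were, and 0 of 30 were fully below, where 2.0% of all genes were.

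The balance of heavy and light chains differed with the split. SLC3A2 exceeded the summed light chains in 10 of 19 late SOX17-higher and 29 of 33 late NANOG-higher cells, and in 3 of 7 hatching SOX17-higher and 18 of 19 hatching NANOG-higher cells. The leading light chain was SLC7A8 in 16 and SLC7A7 in 3 of the 19 late SOX17-higher cells. It was SLC7A7 in 4 and SLC7A8 in 3 of the 7 hatching SOX17-higher cells, while SLC7A5 led in 12 of the 19 hatching NANOG-higher cells. SLC7A5 itself differed by 1.02 in late cells, where the difference was -0.66 among titles 3 to 22 and 1.89 among titles 25 to 61, and hatching medians were 15.2 FPKM in SOX17-higher and 14.2 FPKM in NANOG-higher cells.

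**Figure D4:**
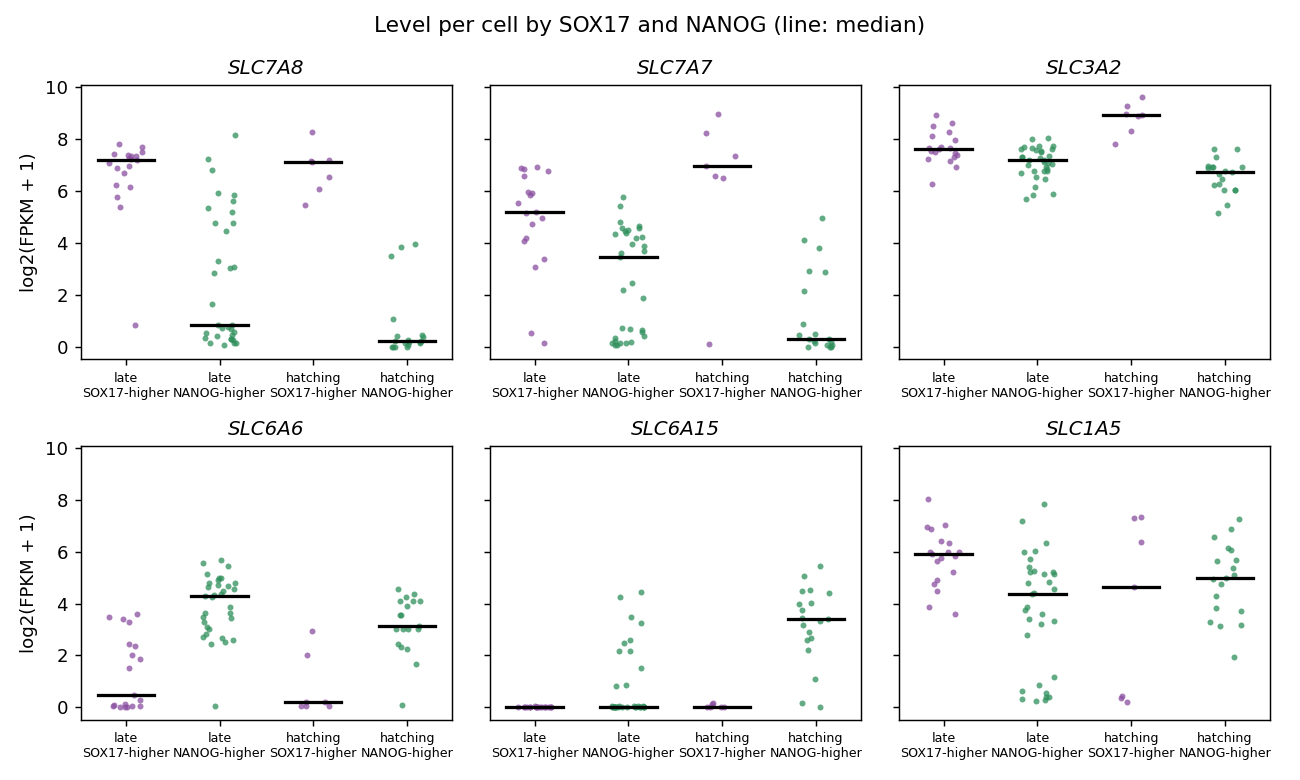
Level of 6 members in each cell, as log2(FPKM + 1), for SOX17-higher (left) and NANOG-higher (right) cells of the late and hatching stages, with a line at the median. SLC7A8 and SLC3A2 do not overlap between the hatching groups, SLC6A15 stays below 1 FPKM in SOX17-higher cells, and SLC1A5 has 3 hatching SOX17-higher cells near 0.

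The members lower in SOX17-higher cells included SLC6A6 in both stages and SLC6A15 at hatching. The taurine transporter SLC6A6 had lowest, median and highest levels of 0, 0.378 and 11.1 FPKM in late SOX17-higher cells, against 0.0264, 18.4 and 50.0 FPKM in late NANOG-higher cells, a difference of -2.61. At hatching its medians were 0.164 FPKM in SOX17-higher and 7.88 FPKM in NANOG-higher cells, a difference of -2.39. SLC6A15 was detected in 0 of 19 late SOX17-higher cells (which allows a share of up to 15.8%) and 9 of 33 late NANOG-higher cells, a difference of -0.85 that did not reach 1 log2 unit. At hatching it was detected in 0 of 7 SOX17-higher cells (up to 42.9%) and 17 of 19 NANOG-higher cells, a difference of -3.15, or -2.68 among titles 1 to 18.

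The glycine transporter SLC6A9 was lower in SOX17-higher cells of both stages, at -1.08 in late cells (0 of 19 SOX17-higher and 10 of 33 NANOG-higher cells) and -1.69 at hatching (1 of 7 SOX17-higher and 14 of 19 NANOG-higher cells). The arginine importer SLC7A3 was lower, at -1.22 in late and -1.59 in hatching cells. SLC38A9 was lower, at -1.06, in late cells, where the difference was 0.13 among titles 3 to 22. The remaining members lower at hatching were SLC38A1 at -2.43, SLC6A3 at -1.66, SLC36A1 at -1.61, SLC7A1 at -1.30, SLC7A2 at -1.27 and SLC1A5 at -1.07. Among titles 1 to 18, SLC6A3 differed by -0.62 and SLC7A1 by -0.65.

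Besides SLC7A8, SLC7A7 and SLC7A5, late SOX17-higher cells were higher in SLC1A5 at 2.07, SLC38A2 at 1.84, SLC7A2 at 1.65 and SLC38A6 at 1.32. SLC1A5 had medians of 59.6 FPKM in late SOX17-higher and 19.6 FPKM in late NANOG-higher cells, and 8 of the 33 NANOG-higher cells but none of the 19 SOX17-higher cells were under 1 FPKM. SLC38A2 had medians of 62.7 FPKM in late SOX17-higher and 30.4 FPKM in late NANOG-higher cells. At hatching, SLC36A4 was higher by 2.56, with 16.2, 33.7 and 69.0 FPKM as lowest, median and highest level in SOX17-higher cells, against 0, 6.69 and 41.7 FPKM in NANOG-higher cells. SLC1A3 was higher by 2.42, SLC7A11 by 1.24 and SLC38A10 by 1.19, all with overlap. SLC1A3 was detected in 4 of 7 hatching SOX17-higher and 1 of 19 hatching NANOG-higher cells.

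Rank correlations within a stage used no split. They describe cells that share a stage and differ in depth, and no test was made. In early and middle cells no member reached a Spearman rho of 0.5 in size with NANOG (0.307% of all genes positive and 0.235% negative in early, 0.102% and 0.102% in middle cells) or with SOX17 (0.174% and 0.0511% in early, 0.256% and 0.102% in middle cells). The nearest was SLC7A8 with NANOG in early cells, at 0.496. In the 52 late cells, rho with NANOG was 0.78 for SLC6A6, the 1 positive member (3.62% of all genes), and -0.74 for SLC7A8, -0.57 for SLC7A7, -0.57 for SLC1A5 and -0.55 for SLC7A2, the 4 negative ones (3.57%). With SOX17 it was 0.77 for SLC7A8 and 0.59 for SLC1A5 (3.57% of all genes), and -0.61 for SLC6A6 (3.24%). None of these 5 late members had a rho above 0.15 in size with reads.

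In the 26 hatching cells, rho with NANOG was -0.66 for SLC3A2, -0.59 for SLC7A8, -0.59 for SLC36A4 and -0.58 for SLC7A7 (4.78% of all genes), with 0 members positive (7.79%). With SOX17 it was 0.76 for SLC7A8, 0.56 for SLC1A3 and 0.55 for SLC7A7 (5.55% of all genes), and -0.72 for SLC6A15, -0.67 for SLC6A3 and -0.54 for SLC6A6 (10.3%). With reads, rho was 0.60 for SLC6A15, 0.53 for SLC6A3, 0.51 for SLC6A6 and -0.50 for SLC7A8 in the same cells. Between members, SLC7A8 and SLC6A6 had a rho of -0.60 in late and -0.52 in hatching cells, SLC38A1 and SLC38A2 of 0.52 in late cells, and SLC7A8 and SLC3A2 of 0.56 in hatching cells.

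**Figure D5:**
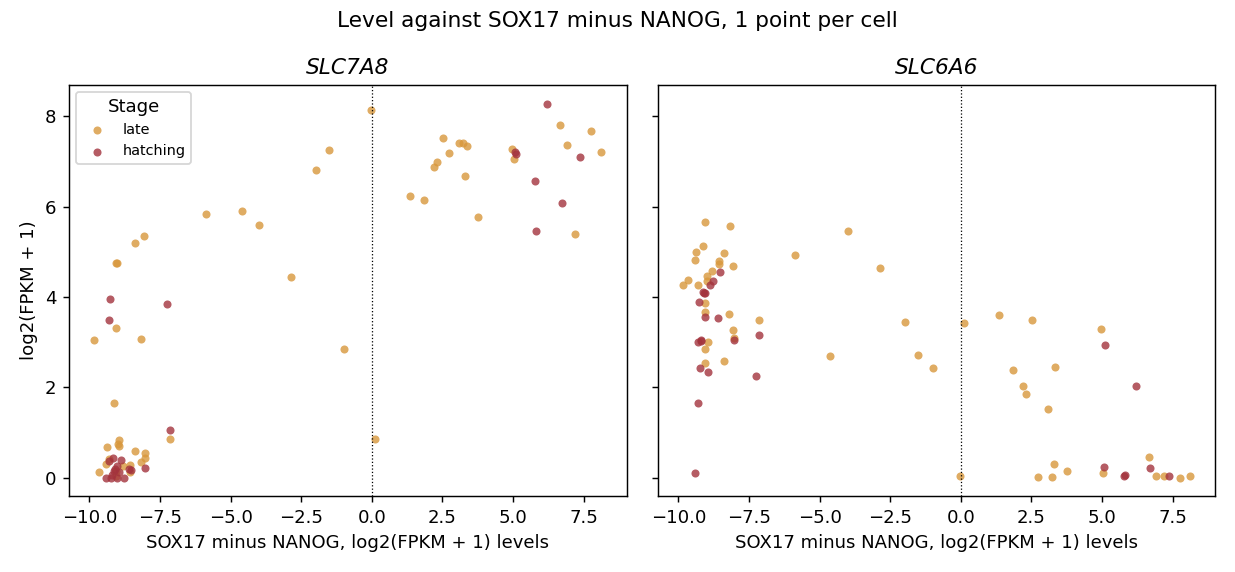
Level of SLC7A8 (left) and SLC6A6 (right), as log2(FPKM + 1), against the log2 level of SOX17 minus that of NANOG in late and hatching cells, 1 point per cell, with the dotted line at 0. SLC7A8 is high to the right of the line and mixed to its left in late cells, and SLC6A6 is high to its left.

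The 25 members under a mean of 1 FPKM were mostly silent. Of these, SLC1A7, SLC38A4, SLC6A7, SLC6A12, SLC7A10 and SLC7A13 were at 0 in every cell, and SLC36A3, SLC7A9 and SLC7A14 reached 1 FPKM in no cell. SLC6A17, a vesicular carrier of neutral amino acids known from neurons, was detected in 1 of 44, 1 of 39, 2 of 52 and 9 of 26 cells from early to hatching, and SLC1A6, a glutamate carrier known from the cerebellum, in 1, 1, 2 and 7. All of the late and hatching cells with either gene were NANOG-higher, as were 33 of all 52 late and 19 of all 26 hatching cells. At hatching the NANOG-higher cells also had more reads, with medians of 13.2 M against 9.74 M in SOX17-higher cells. SLC6A14, a broad carrier of neutral and cationic amino acids, was detected in 0, 1, 4 and 3 cells of the 4 stages, the late and hatching ones all NANOG-higher. The proline carrier SLC6A20 was detected in 9 of 44, 4 of 39, 7 of 52 and 0 of 26 cells, and the glycine carrier SLC6A5 in 6 late NANOG-higher cells. The remaining SLC36A2, SLC43A3, SLC1A2, SLC6A13, SLC6A2, SLC6A4 and SLC6A11 were each detected in 1 to 5 of the 161 cells.

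Genes around amino acid transport were counted in 4 lists. The amino acid response list holds ATF4, factors upstream of it and genes induced through it when amino acids are short. Of this list, 2 of 16 were higher and 3 lower in hatching than in early cells (median 0.11), near the 11.3% and 16.2% of all genes. These included ASNS, asparagine synthetase, at 2.18, STC2 at 1.63, PPP1R15A at -1.95 and DDIT3 at -1.03. Across late cells SLC38A2, itself a known ATF4 target, had a Spearman rho of 0.59 with ASNS, but 0.09 across hatching cells. Of genes of mTORC1, its regulators, amino acid sensors and substrates, 0 of 30 were higher and 2 lower in hatching than in early cells. Among all genes, 11.3% were higher and 16.2% lower. The 2 lower genes were SESN1 at -1.36 and EIF4EBP1 at -1.08, and the list median was -0.18. Of other amino acid carriers, 0 of 11 were higher and 1 lower, the mitochondrial glycine carrier SLC25A38 at -1.35, beside the same shares of all genes.

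Of the genes of amino acid breakdown and conversion, 10 of 31 were higher and 4 lower in hatching than in early cells (median 0.32), where 11.3% of all genes were higher and 16.2% lower. CBS and CTH, the enzymes that make cysteine from homocysteine, were higher by 4.03 and 3.78, the creatine synthesis enzyme GAMT by 2.88, and ornithine aminotransferase OAT differed by -2.29. In late SOX17-higher cells 1 of 31 was higher (7.69% of all genes) and 7 were lower (7.89%) than in NANOG-higher cells, among them the glycine cleavage enzyme GLDC at -3.01, CBS at -1.94, CTH at -1.91 and ASS1 at -1.52. At hatching 4 were higher (14.2% of all genes) and 17 lower (33.7%), among them CDO1, which breaks down cysteine, at 2.999, CTH at -3.07, GCAT at -2.95 and OAT at -2.90.

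Of other amino acid carriers, 2 of 11 were lower in late SOX17-higher cells (7.89% of all genes), the mitochondrial aspartate and glutamate carrier SLC25A12 at -2.69 and SLC25A29 at -1.31. At hatching 2 of 11 were higher (14.2% of all genes) and 5 lower (33.7%), with SLC25A29 at -3.60, SLC25A22 at -3.30 and SLC25A12 at -3.29. Of the amino acid response, 0 of 16 were called in late cells (7.69% of all genes higher and 7.89% lower), and at hatching 1 was higher (14.2%), DDIT3 at 2.60, and 6 were lower (33.7%), with ASNS at -2.45, STC2 at -2.37 and CEBPG at -1.79. Of the mTORC1 genes, 1 of 30 was lower in late cells (NPRL3 at -1.20, with 7.89% of all genes lower), and 2 were higher (14.2% of all genes) and 8 lower (33.7%) at hatching. The shares of response and mTORC1 genes called lower at hatching were near or under that of all genes.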

How the data were processed

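The authors deposited 1 table of FPKM values, fragments divided by transcript length and library size, for 16049 gene symbols and 161 cells. Reads of 150 bp were made from PCR-amplified cDNA, per the labels' protocols. FastQC, TopHat2 2.1.0, HTSeq and DESeq2 are named, with no role or order, per the submitters' processing notes. The genome build was not given in the sources used here, nor were the annotation and the use of strand.

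The steps of the low FPKM values gave whole reads, within a relative tolerance of 2e-06, for 13857 of 13857 genes above 0 in at least 2 cells. Total reads ranged from 3.15 to 20.1 M (mega) per cell. No 2 cells had identical values. Each cell was placed in its stage by its label. Values were set to log2(FPKM + 1), with a filter at a mean of 1 FPKM over all cells. The labels name no embryo, so no test was made between stages or between SOX17-higher and NANOG-higher cells, and no count model was fitted. Shares have exact Clopper-Pearson 95% intervals, with 3 counts as the limit for 0. Marker and pathway genes without a row in the table were not analysed here.

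The members and lists were chosen with earlier results of these data known. Members are named where they were among the 10 highest by mean, among the 8 largest differences of at least 1 log2 unit in either direction, in a fixed set of well-studied transporters, or, under a mean of 1 FPKM, detected in 25% of a stage. The other members are named to account for the 55, except 1 that is not reported here. The alternatives were other pseudocounts, filters, scalings and summaries, and cells of part of the title numbers. Titles of some middle and late cells begin with HS, and these cells are in no title range. Without them, 37 of 39 middle and 47 of 52 late cells remain. Symbols stand as in the table, and no sequence was available here. The computation was tested on simulated data. Python 3.11.15, pandas 2.3.3, numpy 2.4.6, scipy 1.17.1 and matplotlib 3.10.9 were used.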

Additional observations from a re-analysis of the deposited data

Results flagged for a closer look

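SLC1A5 differed in opposite directions in the late and hatching splits. The difference of SOX17-higher from NANOG-higher cells was 2.07 in late and -1.07 in hatching cells, so that the hatching value minus the late value was -3.14 log2 units. At hatching, 3 of 7 SOX17-higher and 0 of 19 NANOG-higher cells were under 1 FPKM, while the medians were 24.1 FPKM in SOX17-higher and 31.2 FPKM in NANOG-higher cells. The hatching difference depends on the summary, being 0.46 from log2 of mean FPKM and -2.49 among titles 1 to 18, and it passed 1 log2 unit in 3 of 8 alternatives. Of these 8, keeping only cells at least 2 log2 units from equal SOX17 and NANOG left the same cells and repeated the main value. The difference between the stages was not tested.

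SLC7A2 did likewise, with 1.65 in late and -1.27 in hatching cells, a difference of -2.93 between the stages that was not tested. Its medians were 9.54 FPKM in late SOX17-higher and 1.84 FPKM in late NANOG-higher cells, and 6.06 FPKM in hatching SOX17-higher and 17 FPKM in hatching NANOG-higher cells. Over the alternatives, the late difference ran from 0.63 to 2.62 and passed 1 log2 unit in 8 of 9. The hatching difference ran from -1.76 to -0.34 and passed it in 5 of 8.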

How the results depend on the processing

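No paired analysis was possible because the labels give no replicate numbers that join cells across stages. Values are given as differences in log2 units, and those by hatching, early or middle title numbers beyond the planned ones were chosen after seeing the data. For hatching minus early cells the median member difference, 0.50, was 0.79 with a pseudocount of 0.1, 0.052 over 48 members without a filter, 0.23 over 19 members with a mean of at least 5 FPKM, 0.13 from medians over cells and 1.00 from log2 of mean FPKM. The count of higher members, 14, was 1 with a pseudocount of 10, 7 with a mean of at least 5 FPKM and 9 from medians over cells. The count of lower members, 5, was 9 with a pseudocount of 0.1, 1 with a pseudocount of 10, 3 from log2 of mean FPKM and 9 against the early titles 29 to 48. For late SOX17-higher minus NANOG-higher cells the median, -0.30, was -0.48 and -0.078 with pseudocounts of 0.1 and 10, 0.00 without a filter, 0.27 with a mean of at least 5 FPKM, 0.00 from medians over cells, -0.20 among titles 3 to 22 and -0.055 among titles 25 to 61. Higher members, 7, numbered 4 with a pseudocount of 10, and lower ones, 4, numbered 8 and 1 with pseudocounts of 0.1 and 10. At hatching the median, -0.13, was -0.41 and 0.011 with those pseudocounts, -0.00093 without a filter, 0.026 with median-of-ratios size factors, 0.021 from medians over cells, 0.48 from log2 of mean FPKM and 0.23 among titles 1 to 18. Higher members, 7, numbered 4 with a pseudocount of 10, and lower ones, 10, numbered 1 with it and 6 with a mean of at least 5 FPKM. The share of all genes called was not counted under these alternatives, so these counts have no background beside them. The cause of these shifts was not tested. The direction turned for SLC7A7 between hatching and early cells (-0.032 with titles 22 to 47), SLC7A8 between hatching and late cells (0.38 with titles 1 to 18), SLC38A9 and SLC7A5 in the late split (0.13 and -0.66 with titles 3 to 22) and SLC1A5 in the hatching split (0.46 from log2 of mean FPKM). Past 1 log2 unit under every alternative run were SLC38A2 and SLC7A4 between hatching and early cells, SLC7A8, SLC7A7, SLC1A5, SLC38A2 and SLC6A6 in the late split, and SLC7A8, SLC7A7, SLC3A2, SLC36A4 and SLC6A15 in the hatching split. In the hatching split, keeping only cells at least 2 log2 units from equal SOX17 and NANOG left the same 7 and 19 cells. That alternative therefore repeated the main run. With 7 hatching SOX17-higher cells and no embryo named, the precision is that of few cells.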

Other observations

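Cells of the same stage differed along the numbers in their titles for more members than SLC38A2. These title ranges were chosen after seeing the data, and what the numbers stand for is not given. In early cells, the mean log2(FPKM + 1) of SLC7A8 was 2.79 in titles 1 to 28 and 1.38 in titles 29 to 48, while that of SLC1A1 was 0.85 and 1.99 in the same ranges. In late cells, SLC36A4 had means of 0.68 in titles 3 to 22 and 2.06 in titles 25 to 61, and SLC6A15 of 0.013 and 0.82. In middle cells, SLC1A5 had means of 4.56 in titles 3 to 29 and 6.01 in titles 32 to 55.

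The late cells nearest to equal SOX17 and NANOG were mixed for SLC7A8. The cells with SOX17 within 1 log2 unit of NANOG were 1 SOX17-higher and 2 NANOG-higher cells, and the only late SOX17-higher cell with SLC7A8 under 1 FPKM, at 0.803 FPKM, was the one among them. The NANOG-higher cell with the highest SLC7A8, at 283 FPKM, was also among them, and had 52.1 FPKM of SOX17 and 53.5 FPKM of NANOG.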
